A study of Mus musculus with 4 samples.

Results

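The class 4 semaphorins and the plexin receptors that leukocytes carry were followed in bone marrow neutrophils by RNA sequencing. The members were 7 genes of the 54532 in the deposited count table, taken by symbol: the semaphorins Sema4a, Sema4b and Sema4d, the plexins Plxnb1, Plxnb2 and Plxnd1, and the neuropilin Nrp1. They were chosen from the comparison described here, with Sema4a known to be lower after Aβ40, so their differences between the groups are given as a description and carry no test. All cells were of wild-type (WT) genotype. One group had received amyloid-beta 40 (Aβ40), a fragment of the amyloid precursor protein that deposits in vessel walls, for 4 h at 20 µg/ml. The other had received DMSO, a solvent, with no dose or time recorded. Each group held 2 libraries. No label tells if the libraries of a group were separate animals or cultures, so every p-value covers only their own spread, which may be technical. Per the series' design text, the experiment asked how Aβ40 leads neutrophils to form extracellular traps (NETs). The strain, age and sex of the mice and the way the neutrophils were purified were not stated in the labels used here.

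Semaphorins are ligands that share a large folded domain called the sema domain. Those of class 4 span the membrane, and several can also be cut from the cell surface and act at a distance. Plexins bind them with a sema domain of their own, and inside the cell they switch off small GTPases of the R-Ras and Rap kind. Plexins of the B type also bind exchange factors that activate RhoA, so the pathway bears on adhesion and on the actin skeleton. On neutrophils, membrane-bound Sema4D has been described as a restraint on activation and NET release.

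The table of RefSeq promoters held at least 1 start site for all 7 members. Shown here are the 300-base windows, from 250 bases before to 50 after the start, of the pair of members that differed most between the groups, Sema4a and Sema4d, with Plxnb2 as a receptor gene rich in CpG for comparison (build GRCm38.p6, 5′ to 3′ on the gene's strand). For each gene the start site nearest to the 5′ end of the gene in the deposited table was taken. That site was at 0 bp from the end for Sema4a and Plxnb2 but 37064 bp inside the annotated gene for Sema4d. The windows are chr3:88461133-88461432, chr13:51756634-51756933 and chr15:89180739-89181038, all on the minus strand. Capitals mark matches, on either strand, to the motifs searched.
Sema4a: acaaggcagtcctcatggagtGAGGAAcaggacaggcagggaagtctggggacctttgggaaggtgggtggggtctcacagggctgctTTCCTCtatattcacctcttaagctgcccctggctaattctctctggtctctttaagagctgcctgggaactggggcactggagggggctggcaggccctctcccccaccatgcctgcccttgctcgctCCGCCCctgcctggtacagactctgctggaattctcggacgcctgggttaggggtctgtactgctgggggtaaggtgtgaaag
Sema4d: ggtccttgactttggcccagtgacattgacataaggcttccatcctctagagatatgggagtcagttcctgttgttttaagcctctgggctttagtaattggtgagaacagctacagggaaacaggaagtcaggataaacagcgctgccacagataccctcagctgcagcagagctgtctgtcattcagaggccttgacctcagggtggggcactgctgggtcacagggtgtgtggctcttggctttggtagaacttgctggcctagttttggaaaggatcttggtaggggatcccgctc
Plxnb2: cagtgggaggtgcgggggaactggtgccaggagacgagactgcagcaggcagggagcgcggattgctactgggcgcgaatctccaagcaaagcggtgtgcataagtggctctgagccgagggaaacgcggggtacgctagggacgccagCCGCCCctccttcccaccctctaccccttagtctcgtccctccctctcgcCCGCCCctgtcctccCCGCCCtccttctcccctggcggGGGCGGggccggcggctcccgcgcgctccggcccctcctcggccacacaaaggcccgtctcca
The motifs were GAGGAA, a core of PU.1 and other ETS factors, TTNNGCAA of C/EBP factors, TGANTCA of AP-1 and GGGCGG of Sp1. The Sema4a window held GAGGAA at 2 places, beginning at positions -229 and -162 from the start site, and GGGCGG once, with no overlap between them. The Sema4d window held none of the 4 motifs, and the Plxnb2 window held GGGCGG at 4 places. Among all 32851 windows of this length in the table, 28.3% held GAGGAA, 10.8% TTNNGCAA, 7.81% TGANTCA and 35.7% GGGCGG. CpG dinucleotides numbered 4 in the Sema4a window and 2 in that of Sema4d, against a median of 7 over all windows. The other 5 members had between 14 and 36 in the window taken. RefSeq listed 4 start sites for Sema4a, and the windows at its other sites had 5, 14 and 7. For Sema4d it listed 3, and the windows at its other sites had 3 each. Those other Sema4d windows held an AP-1 and an Sp1 match, and another Sema4a window held a C/EBP match. Which start sites these cells use was not tested. A match describes letters only and does not show that a factor binds there.

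Total counts per library ran from 17212264 to 19524125, and 1 count was worth 0.0523 to 0.0585 CPM, the count scaled to library size. Neutrophil markers were abundant: 12 fixed genes such as S100a8, Ly6g and Ltf summed to 140300 and 133300 CPM in Aβ40 1 and 2, and to 136000 and 95720 CPM in DMSO 1 and 2. DMSO 2 thus stood apart from the other libraries in this sum. Most of the sum came from S100a8, S100a9 and Ngp, at 30000, 27540 and 20430 CPM in DMSO 2. Not all markers followed it: Csf3r and Cxcr2 were highest in DMSO 2, at 755.5 and 309.7 CPM. The Spearman correlation over tested genes was 0.987 within the Aβ40 pair and 0.978 within the DMSO pair, and DMSO 1 was closer to Aβ40 2, at 0.982. A filter on low counts kept 13479 genes, and edgeR's quasi-likelihood test with Benjamini-Hochberg adjustment over all of them called 17 higher and 0 lower (adjusted p under 0.05), or 0.126% in either direction. At an unadjusted p under 0.05 there were 877 higher and 771 lower genes. DESeq2 called 102 higher and 33 lower, and limma on log2(FPKM + 1) called 0 and 0. Over all tested genes the median log2 fold change, Aβ40 minus DMSO, was 0.013.

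Of the 7 members, 6 passed the filter, and Plxnb1 did not. None of the 6 was among the 17 called genes. For 3 of the 6, Sema4a, Sema4d and Nrp1, both Aβ40 libraries lay below both DMSO libraries, as did 21.9% of all tested genes. For 1 of the 6, Sema4b, both lay above, as did 23.2% of all tested genes. Groups were apart in one direction or the other for 45.1% of them. Since the comparison itself chose the members, nothing is read from these counts.

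Sema4a encodes a semaphorin of dendritic cells, macrophages and activated T cells that supports T cell priming in mice. The gene (ENSMUSG00000028064) lies on mm10 chromosome 3 from 88435959 to 88461182, minus strand. It had 153 CPM in Aβ40 1 and 160 CPM in Aβ40 2, against 302.5 CPM in DMSO 1 and 331.5 CPM in DMSO 2. The groups did not overlap, and the gap between them was much wider than the distance within either pair: the lower DMSO library exceeded the higher Aβ40 library by 0.92 on the log2 scale, while the libraries of a pair were 0.070 apart with Aβ40 and 0.13 apart with DMSO. The means were 157 ± 5.39 CPM with Aβ40 and 317 ± 20.6 CPM with DMSO (SD, n = 2 each). The log2 fold change was -1.02 (SE 0.17), a level 0.494 times that with DMSO. Among the 7817 genes averaging 10 CPM or more, 5 had a lower log2 fold change. Since Sema4a was chosen for this difference, its gap and its rank only describe it.

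Sema4d encodes the semaphorin CD100, found on T cells, neutrophils and platelets, which binds plexin B1, plexin B2 and, on lymphocytes, CD72. The gene (ENSMUSG00000021451) lies on chromosome 13 from 51685529 to 51793747, minus strand. It had 312 CPM in Aβ40 1 and 361 CPM in Aβ40 2, against 575 CPM in DMSO 1 and 640 CPM in DMSO 2. The groups again did not overlap, and library 2 was the higher of each pair. The means were 336 ± 34.2 CPM with Aβ40 and 607 ± 45.8 CPM with DMSO (SD, n = 2 each). Their log2 fold change was -0.85 (SE 0.19). Of the same 7817 genes, 29 had a lower one. As read counts these levels rest on 5338 and 6895 counts with Aβ40 and on 10728 and 11899 counts with DMSO, so counting error is small beside the spread between libraries. In bulk RNA, fewer cells that carry a transcript and less of it per cell cannot be told apart.

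Sema4b encodes a further transmembrane semaphorin, which in mice has been described on lymphocytes as a restraint on basophils. The gene (ENSMUSG00000030539) lies on chromosome 7 from 80186841 to 80226527, plus strand. It was scarce, with 10.7 and 12.8 CPM in Aβ40 1 and 2, against 8.47 and 10.5 CPM in DMSO 1 and 2. Aβ40 1 and DMSO 2 were nearly level, so the groups were separated by little. The log2 fold change was 0.31 (SE 0.25), on the other side of 0 from Sema4a and Sema4d.

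**Figure D1:**
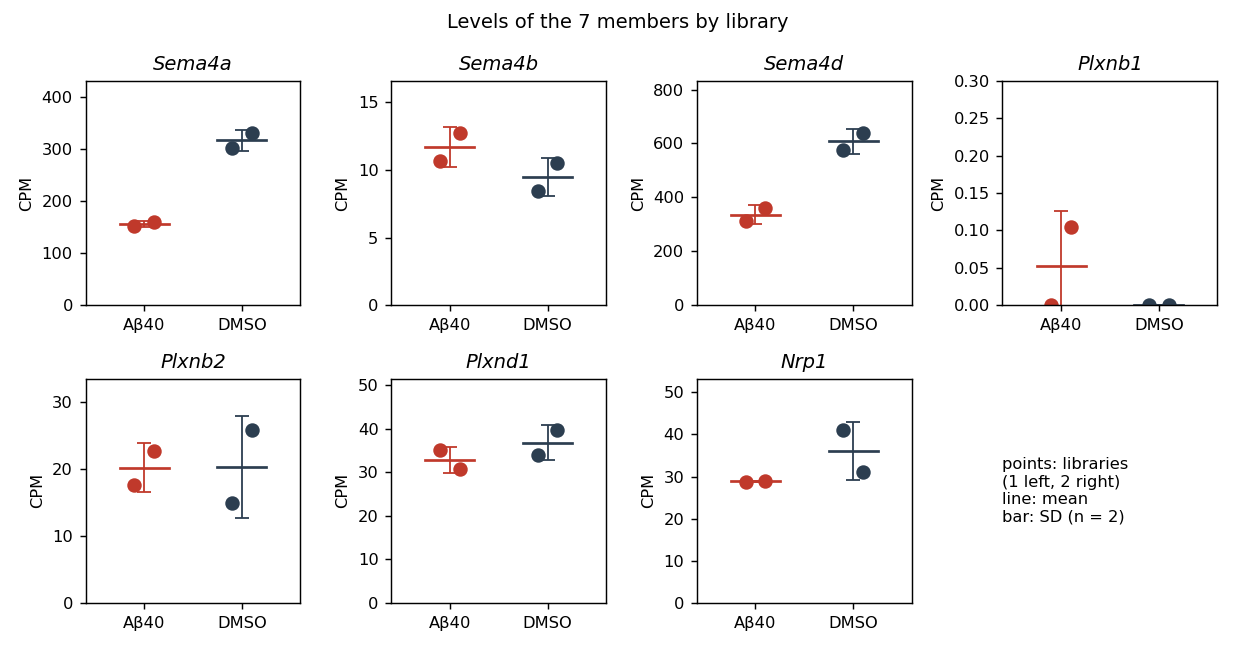
Levels of the 7 members in CPM (vertical axes, which differ by panel), with Aβ40 left of DMSO; points are libraries, lines are means and bars are SD (n = 2). Sema4a and Sema4d sit at 157 and 336 CPM with Aβ40 and at 317 and 607 CPM with DMSO, while the pairs of Plxnb2 and Plxnd1 overlap.

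The receptors differed less between the groups than Sema4a and Sema4d did. Plxnb2 encodes plexin B2, a receptor of Sema4C and Sema4D and in mice of Sema4A (ENSMUSG00000036606, chromosome 15, 89155549 to 89180788, minus strand). It had 17.6 and 22.7 CPM in Aβ40 1 and 2, against 15.0 and 25.7 CPM in DMSO 1 and 2. The DMSO libraries enclosed both Aβ40 libraries, and their ratio was 1.72. The log2 fold change was -0.014 (SE 0.29), and its sign rested on 1 library: it was -0.35 without DMSO 1 and 0.42 without DMSO 2.

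Plxnd1 encodes plexin D1, a receptor of Sema3E and Sema4A known from blood vessels and thymocytes (ENSMUSG00000030123, chromosome 6, 115954811 to 115995005, minus strand). It had 35.0 and 30.7 CPM in Aβ40 1 and 2, against 33.9 and 39.6 CPM in DMSO 1 and 2. The ranges overlapped, and the log2 fold change was -0.16 (SE 0.19). It was -0.27 without DMSO 1 and -0.060 without DMSO 2.

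Nrp1 encodes neuropilin 1, a co-receptor of class 3 semaphorins and of vascular endothelial growth factor that in mice also marks regulatory T cells (ENSMUSG00000025810, chromosome 8, 128358604 to 128503363, plus strand). It had 28.8 and 29.0 CPM in Aβ40 1 and 2, against 41.0 and 31.2 CPM in DMSO 1 and 2. The Aβ40 libraries were nearly equal and lay just below DMSO 2, while DMSO 1 stood higher. The log2 fold change was -0.32 (SE 0.21), and it was -0.52 without DMSO 2 but -0.11 without DMSO 1.

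Plxnb1 encodes plexin B1, the receptor of Sema4D best known from nerve and epithelial cells (ENSMUSG00000053646, chromosome 9, 109095389 to 109119917, plus strand). It had 0 and 2 counts in Aβ40 1 and 2, against 0 and 0 counts in DMSO 1 and 2. A count of 0 allows up to 3 counts, which is 0.157 to 0.175 CPM in these libraries, for counting error only. Both groups were within that limit, so no fold is given.

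The annotated genes that overlap the members held 0 counts, or 1 count at most in any library. These were 4 miRNA genes, Gm45206 within Sema4b and, on the opposite strand, Gm7628 at Plxnb1. The counts do not show how reads in the overlaps were assigned, so reads lost to the members cannot be told. Plxnd1 overlapped no annotated gene.

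**Figure D2:**
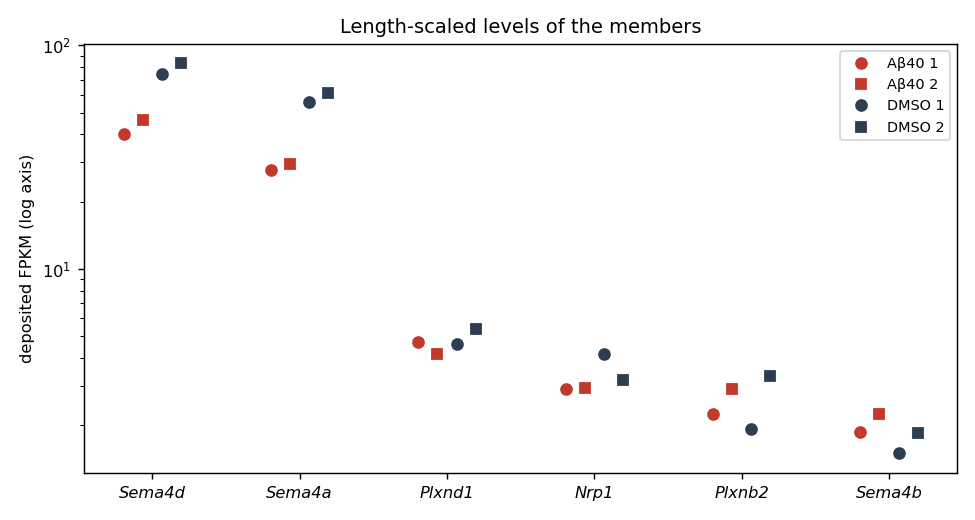
Deposited FPKM (log axis) of 6 members in each library, ordered by mean; Plxnb1 is not drawn because it is listed at 0 in 3 libraries. Sema4d and Sema4a stand above the others in every library, and Plxnd1, Nrp1, Plxnb2 and Sema4b lie between 1.49 and 5.40 FPKM.

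Levels were compared between genes on the deposited FPKM scale (fragments scaled by gene length and by library), in which gene length is divided out. Sema4d was highest, with 39.98 and 46.4 FPKM in Aβ40 1 and 2, against 74.6 and 82.9 FPKM in DMSO 1 and 2. Sema4a followed with 27.8 and 29.3 FPKM in Aβ40 1 and 2, against 55.7 and 61.0 FPKM in DMSO 1 and 2. Their ranges over the 4 libraries overlapped, but Sema4d was above Sema4a in each of the 4. The ratio of Sema4d to Sema4a FPKM was 1.44 and 1.58 in Aβ40 1 and 2, against 1.34 and 1.36 in DMSO 1 and 2. Both ratios with Aβ40 were above both with DMSO, but the gap between the groups was smaller than the distance within the Aβ40 pair.

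The next level belonged to Plxnd1, with a mean of 4.72 FPKM over the 4 libraries, and no library of it reached the lowest value of Sema4a. Nrp1 averaged 3.29, Plxnb2 2.60 and Sema4b 1.86 FPKM, and each overlapped its neighbour in this order. Nrp1 was above Plxnb2 in 3 of the 4 libraries, so these neighbours were not apart beyond their spread. Plxnb1 was last, listed at 0 FPKM in 3 libraries and at 0.0108 FPKM in Aβ40 2.

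Sema4a and Sema4d together held most of the semaphorin message. They made up 92.7% and 92.3% of the summed FPKM of all 20 semaphorin genes considered in Aβ40 1 and 2, against 94.96% and 94.3% in DMSO 1 and 2. The sum itself was 73.1 and 82.1 FPKM in Aβ40 1 and 2, against 137 and 153 FPKM in DMSO 1 and 2. The sum of 11 plexin and neuropilin genes was 23.4 and 22.3 FPKM in Aβ40 1 and 2, against 23.4 and 26.8 FPKM in DMSO 1 and 2. The semaphorin sums were apart, while Aβ40 1 and DMSO 1 had about the same receptor sum. Most of the semaphorin sum was Sema4a and Sema4d, and Sema4a was known to be lower when the members were chosen. The gap between the semaphorin sums thus mainly restates the values of these members. Of the receptor sum, 49.2% and 46.6% with Aβ40 and 44.3% and 44.9% with DMSO came from Plxnc1, the receptor of Sema7A, which is no member.

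**Figure D3:**
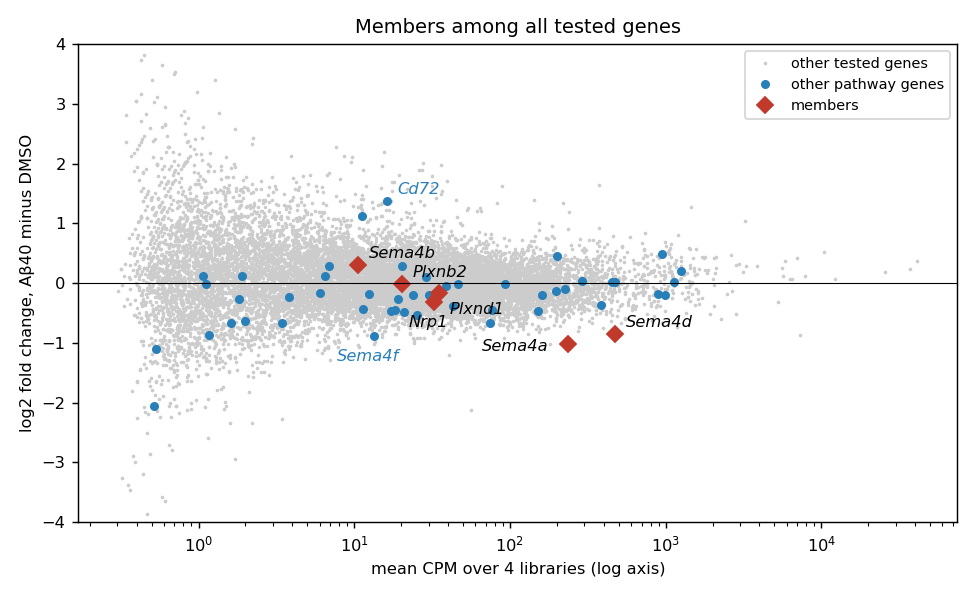
Log2 fold change (Aβ40 minus DMSO) against mean CPM (log axis) for tested genes in grey, other pathway genes in blue and members in red; 6 genes lie beyond the plotted range. Sema4a and Sema4d lie at the lower edge of the genes of like abundance, at -1.02 and -0.85, and the other members near 0.

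The remaining genes of the pathway were taken from a list of 70 genes in 5 groups, of which 48 passed the filter and 22 did not. The edgeR test, adjusted over all 13479 genes, called 0 of the 48 higher and 0 lower, where it called 0.126% of all tested genes higher and 0 lower. At an unadjusted p under 0.05, 3 of the 48 were higher and 5 lower, beside 877 higher and 771 lower of all 13479. DESeq2 called 2 higher, Cd72 and Rras2, and 0 lower, where 0.757% of all tested genes were called higher and 0.245% lower. The median log2 fold change of the 48 was -0.19, with 33 negative and 15 positive, beside a median of 0.013 and 48.9% negative over all tested genes. Of the 33, Sema3c and Plxna3 passed the filter only through the DMSO libraries, so the filter set their sign. The median was -0.077 without DMSO 2 and -0.18 without DMSO 1. With Aβ40 1 or Aβ40 2 left out the median was -0.16. Without DMSO 1, Cd72, Rras2 and Tyrobp were called higher and Sema4f, Rhbdf2, Furin, Fes, Mical1 and Rnd1 lower, where 5.63% of all tested genes were called higher and 3.29% lower. Without DMSO 2, Cd72, Rras2 and Itgb1 were called higher and Sema4f, Dpysl2 and Mmp14 lower, where 3.88% of all tested genes were called higher and 3.28% lower.

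Among other semaphorins, 12 of 17 did not pass the filter, with at most 12 counts in any library. With all 4 libraries the 5 tested genes had negative log2 fold changes, with 0 called and a median of -0.88. That median was the value of Sema4c, which rested on 3 and 28 counts in Aβ40 1 and 2 and was -0.065 without Aβ40 1 and -3.09 without Aβ40 2. The lowest of them, Sema3c, rested on 5 and 2 counts in Aβ40 1 and 2, against 12 and 19 counts in DMSO 1 and 2. Sema3c passed the filter only through the DMSO libraries, so the filter set its negative sign and nothing is read from it. Sema4f, a further member of class 4 and the most abundant of this group, had 8.72 and 9.99 CPM in Aβ40 1 and 2, against 16.6 and 17.9 CPM in DMSO 1 and 2. Its groups did not overlap, with a log2 fold change of -0.88 (SE 0.23; edgeR adjusted p = 0.263). It lay between -1.003 and -0.79 with any 1 library left out. Sema7a, a membrane-anchored semaphorin that binds plexin C1 and integrins, was at -0.23 (SE 0.35), and Sema6b at -0.67 (SE 0.48), with 5.97 CPM in DMSO 2 as its highest library. Sema6b was at 0.087 without DMSO 2 and at -1.18 without DMSO 1.

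Of the other plexins and neuropilins, 4 of 7 were tested, with 0 called and a median of -0.31. Among the 4, Plxna3 had 7 and 5 counts in Aβ40 1 and 2, against 11 and 16 counts in DMSO 1 and 2. It too passed the filter only through the DMSO libraries, so the filter set its negative sign. Plxnc1 was the most abundant plexin, with 97.6 and 87.7 CPM in Aβ40 1 and 2, against 86.9 and 100.9 CPM in DMSO 1 and 2. The ranges were interleaved and the log2 fold change was -0.020 (SE 0.17), turning to 0.080 without DMSO 2 and 0.037 without Aβ40 2. Nrp2, the second neuropilin, was at -0.45 (SE 0.22; edgeR adjusted p = 0.437), with both Aβ40 libraries below both DMSO libraries. Plxna1, a receptor of class 6 semaphorins, was at -0.16 (SE 0.35), but at 0.30 without DMSO 2 and at -0.52 without DMSO 1.

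Of 10 other receptors and co-receptors 6 were tested, all with a positive log2 fold change over the 4 libraries, 0 called and a median of 0.37. Of these, Kdr, a receptor of vascular growth factors, turned to -0.083 without Aβ40 2 and -0.073 without DMSO 2. Cd72, an inhibitory B cell receptor that binds Sema4D, had 19.7 and 27.0 CPM in Aβ40 1 and 2, against 7.67 and 10.4 CPM in DMSO 1 and 2. Every Aβ40 library was above every DMSO library, with a log2 fold change of 1.37 (SE 0.26; edgeR adjusted p = 0.127). DESeq2 called it, with an adjusted p of 0.00323. Markers of B cells moved with it: all 10 genes of that list had positive log2 fold changes, with a median of 1.63. The edgeR test called 5 of the 10 higher, beside 0.126% of all tested genes. The part of B cells in the level of Cd72 was not tested. Tyrobp, the DAP12 adaptor that pairs with Trem2, was at 0.48 (SE 0.20), and Itgb1, integrin beta 1, at 0.46 (SE 0.21), neither called with all 4 libraries. Itgb1 was at 0.24 without Aβ40 1 and at 0.29 without DMSO 1.

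The signalling group held small GTPases, their regulators and actin factors, with 28 of 31 genes tested, 0 called and a median of -0.19. Its most abundant genes were near 0: Cfl1, the actin-severing cofilin, was at 0.20 (SE 0.21), Rac2, the Rac GTPase of blood cells, at 0.018 (SE 0.21), and Rap1b, a GTPase that plexins inactivate, at -0.20 (SE 0.19). Cfl1 was at 0.41 without DMSO 1 and at 0.0015 without DMSO 2, and Rac2 was negative without DMSO 1 (-0.14) or Aβ40 1 (-0.089). Rras2, a GTPase of the R-Ras kind, had 15.5 CPM in both Aβ40 libraries, against 7.99 and 6.18 CPM in DMSO 1 and 2. Its groups were well apart, at 1.13 (SE 0.25; edgeR adjusted p = 0.190), and DESeq2 called it with an adjusted p of 0.0487. Dpysl2, a microtubule-binding mediator of class 3 semaphorins, was at -0.48 (SE 0.31), with DMSO 2 below Aβ40 2. It ran from -0.90 without Aβ40 2 to -0.076 without DMSO 1.

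All 5 processing and shedding enzymes were tested, and with all 4 libraries the 5 had negative log2 fold changes, with 0 called and a median of -0.39. That median was the value of Furin, a protease that processes semaphorins, which was at 0.17 without DMSO 2 and at -0.80 without DMSO 1. Rhbdf2, the iRhom2 partner that brings the sheddase ADAM17 to the surface, had 49.3 and 65.3 CPM in Aβ40 1 and 2, against 82.3 and 99.0 CPM in DMSO 1 and 2. Its log2 fold change was -0.66 (SE 0.20; edgeR adjusted p = 0.322), and between -0.90 and -0.48 with any 1 library left out. Adam17 itself was at -0.10 (SE 0.17), Adam10 at -0.19 (SE 0.17), and Mmp14, a membrane metalloprotease that can also cut Sema4D, at -0.53 (SE 0.28). Mmp14 ran from -0.89 without Aβ40 2 to -0.21 without DMSO 1.

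**Figure D4:**
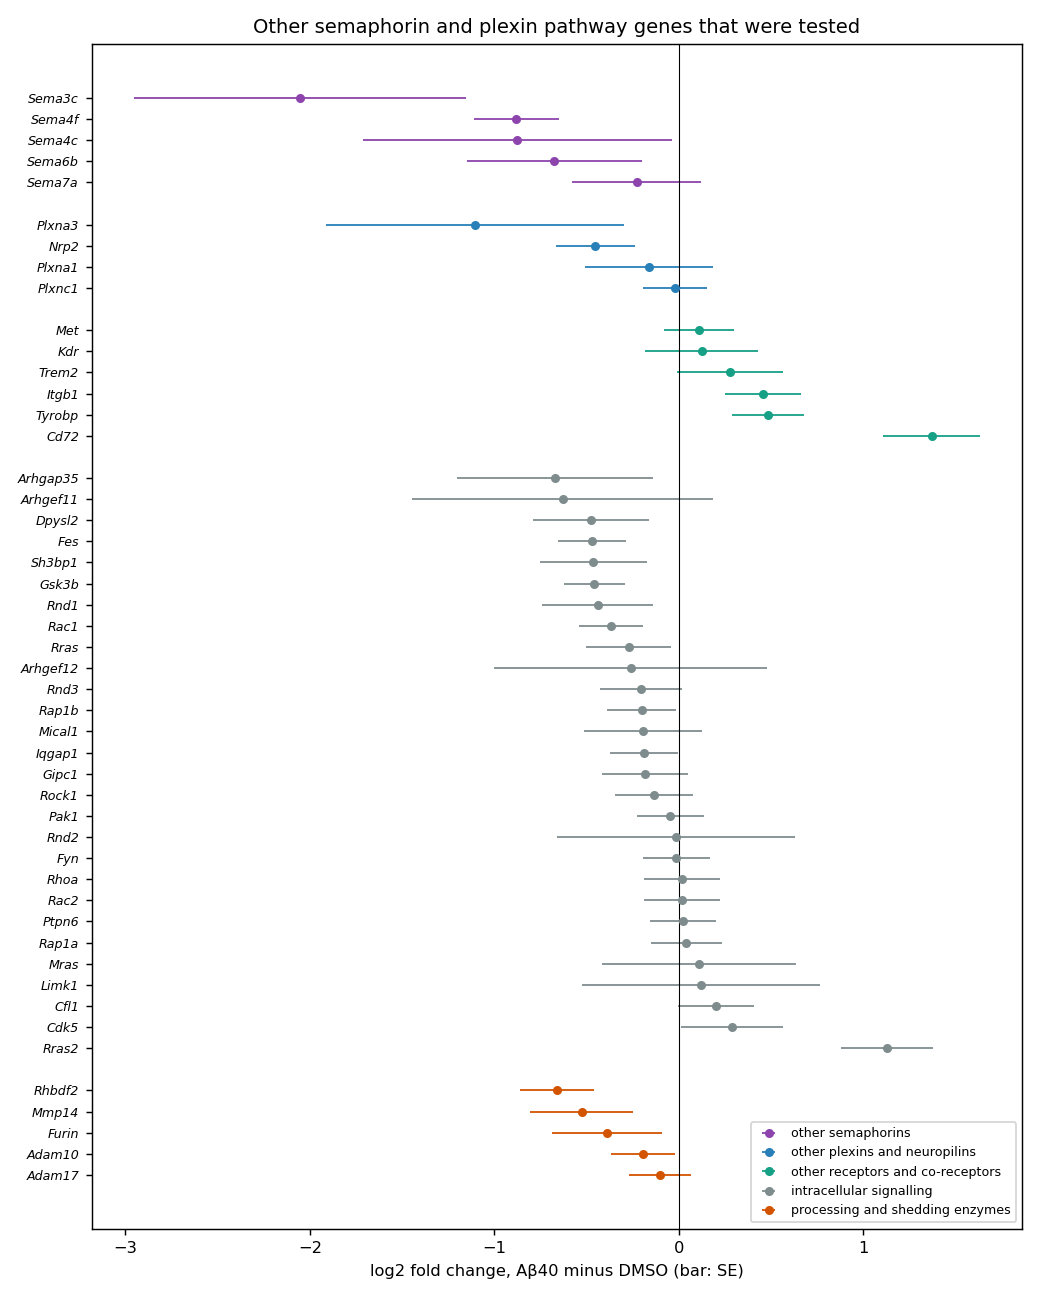
Log2 fold change (Aβ40 minus DMSO, horizontal axis) with SE for the 48 tested genes of the pathway list, in 5 groups by colour. The 5 semaphorins lie between -2.05 and -0.23, the 6 receptors and co-receptors between 0.11 and 1.37, and 0 genes passed the adjustment with all 4 libraries.

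The genes whose pattern was most like that of Sema4a were ranked by the Euclidean distance between log2 CPM profiles, centred per gene, over the 4 libraries. Among 7552 other protein-coding genes at 10 CPM or more on average, Sema4d ranked 4. Leaving out members, the closest 5 were Fam219a, Wdfy3, Sema4f, Fnip2 and Aatk, at distances from 0.0526 to 0.2001 on the log2 scale, where Sema4d was at 0.189. Wdfy3, a large scaffold of selective autophagy, had 39.0 and 43.3 CPM in Aβ40 1 and 2, against 79.0 and 76.0 CPM in DMSO 1 and 2. Fnip2, a partner of folliculin, had 61.9 and 64.3 CPM in Aβ40 1 and 2, against 123.8 and 114.8 CPM in DMSO 1 and 2. Nrp1 ranked 1600, Plxnd1 2154, Plxnb2 4606 and Sema4b 5870. With 4 libraries, the ranking mainly follows the difference between the groups by which Sema4a was chosen.

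Markers of other marrow cells differed between the groups, mostly in the opposite direction to Sema4a and Sema4d. The 10 B cell markers summed to 503 and 534 CPM in Aβ40 1 and 2, against 175 and 169 CPM in DMSO 1 and 2. The 8 eosinophil markers summed to 3566 and 3611 CPM in Aβ40 1 and 2, against 1623 and 1365 CPM in DMSO 1 and 2, with 8 of 8 above 0. The 10 T and NK cell markers summed to 59.9 and 66.3 CPM in Aβ40 1 and 2, against 30.3 and 28.1 CPM in DMSO 1 and 2, with 9 of the 9 tested above 0. Of the 9, Cd3e passed the filter only through the Aβ40 libraries. It had 10 and 22 counts in Aβ40 1 and 2, against 5 and 3 counts in DMSO 1 and 2. All these lists were thus higher in both Aβ40 libraries.

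Markers of monocytes and macrophages summed to 3884 and 3333 CPM in Aβ40 1 and 2, against 2921 and 2813 CPM in DMSO 1 and 2, with 9 of 10 above 0. Dendritic cell markers summed to 322 and 350 CPM in Aβ40 1 and 2, against 301 and 279 CPM in DMSO 1 and 2, with 8 of 9 above 0. Of 6 endothelial markers 2 were tested and Cldn5 was at 0 in all 4 libraries, and of 5 megakaryocyte and platelet markers 4 were tested, all below 0, and Gp1bb was at 0 in all 4. Among 12 neutrophil markers 8 were above 0 and 4 below, with a median of 0.097 and a lowest value of -0.61, so each was above the -0.85 of Sema4d. The part of any of these cell types in the levels of Sema4a and Sema4d was not tested.

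**Figure D5:**
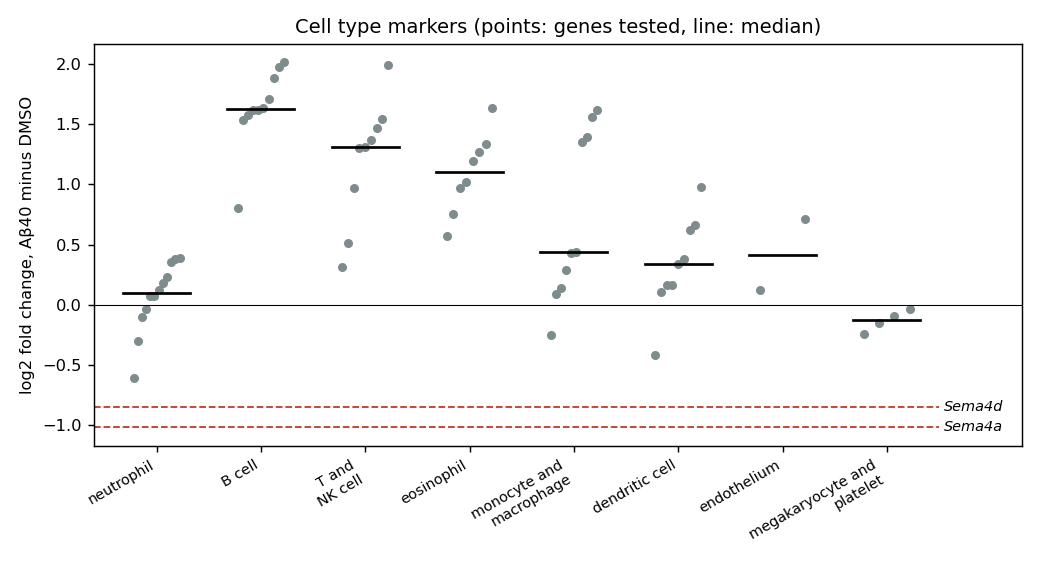
Log2 fold change (Aβ40 minus DMSO, vertical axis) of tested marker genes of 8 cell types, with points for genes and black lines for list medians; dashed red lines give Sema4a and Sema4d. B cell, T and NK cell and eosinophil markers have medians of 1.63, 1.31 and 1.11, and all plotted markers lie above -0.85.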

How the data were processed

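The authors deposited raw read counts per gene and FPKM for 54532 genes, with symbols and mm10 positions, for 2 libraries of bone marrow neutrophils with Aβ40 and 2 with DMSO. The submitters' processing notes name HISAT2 2.0.5 and featureCounts 1.5.0-p3, while strand setting and annotation release were not stated there. Each deposited FPKM is a count over gene length and over a library size proportional to DESeq2's median-ratio size factor, which was checked on the values.

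The counts went into edgeR 4.0.16 under R 4.3.3: filterByExpr by group, TMM scaling, and the quasi-likelihood test of Aβ40 against DMSO (2-sided) with Benjamini-Hochberg adjustment over all 13479 genes. Log2 fold changes are Aβ40 minus DMSO. Each SE was worked back from the test, as the absolute log2 fold change over the square root of the quasi-likelihood F statistic. CPM are TMM-scaled. Alternatives were median-ratio scaling, no scaling beyond library size, DESeq2 1.42.0, no filter, limma 3.58.1 on log2(FPKM + 1) and log2(FPKM + 0.1), the replicate number as a block, and leaving out each library.

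The members and gene lists were chosen with earlier results of these data known. The rule for named pathway genes took, per group, the 3 tested genes with the highest mean FPKM, the 2 with the largest absolute log2 fold change at a mean of at least 5 CPM, and any called gene. Trem2 was named as the partner of Tyrobp, and Sema3c, Sema4c, Plxna3, Kdr, Furin, Fes, Mical1 and Rnd1 after their values were seen. Promoter windows were read from RefSeq tables with Python 3.11.15.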

Additional observations from a re-analysis of the deposited data

How the results depend on the processing

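With 2 libraries a group the number of calls depended on the setting. Genes called higher and lower, 17 and 0 in the report, were 24 and 1 with library-size scaling, 102 and 33 with DESeq2, 185 and 70 with no filter, and 0 and 0 with limma at either pseudocount. Leaving out 1 library gave 0 to 805 higher and 0 to 471 lower, with the lone library of its group assumed to vary like the others. In the pathway list, calls were 2 higher and 0 lower with DESeq2 and with no filter, and 0 to 3 higher and 0 to 6 lower with 1 library left out. The list's median of -0.19 was -0.24 with library-size scaling, -0.12 with limma on log2(FPKM + 1), a scale that understates changes of low genes, and between -0.18 and -0.077 with 1 library left out. The cause of these shifts was not tested.

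The log2 fold change of Sema4a stayed between -1.08 and -0.96 and that of Sema4d between -0.98 and -0.75 over 11 alternatives each, and Sema4b stayed between 0.15 and 0.46. Plxnb2 was negative in 6 and positive in 5. With the replicate number as a block there were 27 higher and 0 lower genes, and 0 and 0 in the pathway list. The labels do not say that a number pairs samples. Deviations of same-numbered libraries from their group means had a weak negative correlation (Pearson r = -0.23 over 13479 genes). The crossed pairing, added after seeing the data, gave 445 higher and 276 lower genes, and 2 and 2 in the list. Counting error limits Plxnb1 and the untested genes.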
